A study of Mus musculus with 16 samples.

Results

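The 9 genes described here encode transcription factors of medium spiny neurons, the projection neurons that make up most of the striatum: Bcl11b, Foxp1, Foxp2, Meis2, Sp9, Isl1, Ebf1, Ikzf1 and Six3. They were chosen by name, as rows of the count table whose Ensembl identifier has one of these symbols, provided that at least 4 of the 16 libraries held at least 10 counts. All 9 of the 9 passed, out of 55450 genes listed and 19363 that passed the same filter. Their counts per library ran from 90 for Sp9 to 10777 for Meis2.

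Striatal mRNA was sequenced from 16 male mice of the C57BL/6 J background (C57Bl/6 in the labels), 14 weeks of age, 1 mouse per library, in 4 groups of 4. R6/1 mice carry a transgene with exon 1 of the human huntingtin gene and an expanded CAG repeat, a widely used model of Huntington's disease, and the wild-type mice were their littermates. Within each genotype, a larger set of mice was scored by motor tests, feet clasping and body weight. The 4 with the best scores were the “good” and the 4 with the worst the “poor” mice, so these are selected extremes. Performance was thus observed and not assigned, and no mouse was treated. The transgene is expressed widely and is not limited to medium spiny neurons. Each genotype thus gave a “good” and a “poor” group.

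Medium spiny neurons arise from the ganglionic eminences of the embryonic brain and divide into direct pathway neurons, which carry the dopamine receptor Drd1, and indirect pathway neurons, which carry Drd2. Bcl11b, a zinc finger factor also called Ctip2, and the forkhead repressor Foxp1 are present in both types and remain on in the adult. Meis2 is a homeodomain factor of striatal progenitors and neurons, Isl1 and Ebf1 act in direct pathway neurons, Six3 and Sp9 in indirect pathway neurons, Foxp2 is a forkhead relative of Foxp1, and Ikzf1 is a zinc finger factor that also acts in blood cells and microglia.

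Libraries held 16155356 to 24897354 counts each. The column headers carry running numbers, and libraries 1 to 8 held all 4 R6/1 “good” mice but 1 R6/1 “poor” mouse, so that performance within R6/1 and this numbering overlapped in large part. The numbering also went with depth, since libraries 1 to 8 held at most 20250680 counts and libraries 9 to 16 at least 21529188. As a check of the tissue, the 24 signalling genes of medium spiny neurons summed to between 15104 and 23838 CPM (counts scaled to the library size) in the 8 wild-type mice. Summed septal markers reached 196 and 124 CPM in R6/1 “poor” mice 1 and 3, against 27.1 to 71.7 in the other 14 mice, and summed cortical markers ran from 25.3 to 789 CPM across all mice. In such bulk samples, fewer cells of a type and less RNA per cell cannot be told apart.

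The 3 genes with the largest falls in R6/1 mice were Bcl11b, Foxp1 and Meis2, and the sequences before their transcription starts are shown. Whether these sequences bear on the falls was not tested. The sequences come from RefSeq on GRCm38.p6 and read 5′ to 3′ on the strand of the gene. They are trimmed to the longest stretch of the 250 bases before the start that lies in no annotated exon. Capitals mark every whole match, on either strand, to the CCAAT box (CCAAT), the GC box (GGGCGG), the TATA box (TATAAA), the cyclic AMP response element (TGACGTCA), a forkhead motif (TGTTTAC) and a MEIS motif (TGACAG).
Bcl11b, chr12:108003603-108003664, minus strand: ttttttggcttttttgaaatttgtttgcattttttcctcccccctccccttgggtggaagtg
Foxp1, chr6:99521163-99521243, minus strand: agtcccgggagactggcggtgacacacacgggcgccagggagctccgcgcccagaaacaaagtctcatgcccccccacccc
Foxp1, chr6:99266533-99266765, minus strand: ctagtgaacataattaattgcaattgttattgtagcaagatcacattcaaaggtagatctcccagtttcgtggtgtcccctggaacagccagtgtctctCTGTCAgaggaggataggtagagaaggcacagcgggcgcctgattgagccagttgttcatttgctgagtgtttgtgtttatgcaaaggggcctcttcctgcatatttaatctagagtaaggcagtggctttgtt
Foxp1, chr6:99028314-99028548, minus strand: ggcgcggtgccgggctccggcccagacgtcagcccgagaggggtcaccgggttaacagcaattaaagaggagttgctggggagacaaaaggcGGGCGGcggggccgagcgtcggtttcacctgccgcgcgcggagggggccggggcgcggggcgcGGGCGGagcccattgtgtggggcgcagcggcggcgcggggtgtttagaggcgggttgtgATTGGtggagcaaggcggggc
Meis2, chr2:116064722-116064801, minus strand: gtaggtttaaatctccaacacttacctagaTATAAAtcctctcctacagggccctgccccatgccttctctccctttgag

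The 5 stretches differed in the motifs they held. The TATA box match stood before a Meis2 start, the MEIS motif before a middle start of Foxp1, and the most downstream Foxp1 start had 2 GC boxes and a CCAAT box, while the stretches of Bcl11b and of the most upstream Foxp1 start held none of the 6 motifs. Over the whole 250 bases, 8 of the 9 members had at least 1 entry, 12 windows in all, and Foxp2 had none. A CCAAT box lay in 5 of these 12 windows and in 33.8% of all 32851 windows, a GC box in 4 against 32.7%, a TATA box in 1 against 12.4% and a MEIS motif in 2 against 15.9%. No member window held the cyclic AMP response element or the forkhead motif, which lay in 1.55% and 3.17% of all windows. These are matches of letters and not binding sites.

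In wild-type striatum the members spanned a wide range of expression. Per kilobase of annotated exon, so that genes of different length can be compared, mean levels were 34.5 ± 4.23 CPM per kilobase for Meis2, 30.3 ± 3.96 for Bcl11b and 18.5 ± 3.17 for Foxp1 (SD, n = 8). Six3 followed at 7.39 ± 1.33, Isl1 at 4.46 ± 0.719 and Foxp2 at 4.23 ± 0.523 CPM per kilobase. Sp9 at 1.86 ± 0.361, Ebf1 at 1.72 ± 0.232 and Ikzf1 at 1.54 ± 0.2 CPM per kilobase were lowest. Neighbours in this order whose mice did not overlap were Bcl11b and Foxp1, Foxp1 and Six3, and Foxp2 and Sp9, and the other neighbours overlapped. With the longest transcript as the length instead, Foxp1 at 35.4 CPM per kilobase came before Bcl11b at 30.3, and these overlapped. Foxp2 at 10.2 then lay above Isl1 at 7.01 CPM per kilobase without overlap, Ebf1 at 2.81 came before Sp9 at 2.08, and Meis2 was at 75.5. The order of these pairs thus depended on the length used.

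Bcl11b, a factor needed for the maturation of medium spiny neurons, lies on the minus strand of chromosome 12 from 107910403 to 108003602 (GRCm38). Its level was 289, 285, 208 and 209 CPM in the wild-type “good” mice and 259, 228, 261 and 229.7 CPM in the wild-type “poor” mice. The R6/1 “good” group had 135, 172, 129 and 169 CPM, and the R6/1 “poor” group 88.9, 124, 114 and 151 CPM. Every R6/1 mouse lay below every wild-type mouse, while the 2 R6/1 groups overlapped. In edgeR's quasi-likelihood test against the 8 wild-type mice, Bcl11b was downregulated, with a log2 fold change of -0.70 ± 0.11 in R6/1 “good” mice (SE, adjusted p = 4.1e-04) and of -1.04 ± 0.13 in the “poor” ones (adjusted p = 8.8e-05). On the linear scale these are 0.615 and 0.486 of the wild-type level.

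Foxp1, a forkhead repressor that regulates the identity and excitability of medium spiny neurons, lies on the minus strand of chromosome 6 from 98925338 to 99522721, with 31 annotated transcripts. Wild-type “good” mice had 305, 321, 202 and 230.0 CPM and wild-type “poor” mice 256, 218, 280.0 and 222 CPM. In the R6/1 “good” group it was 145, 169, 146 and 207 CPM, and in the R6/1 “poor” group 104, 122, 102 and 148 CPM. All R6/1 “poor” mice lay below the wild-type range, and 3 of 4 R6/1 “good” mice did, the fourth lying just above the lowest wild-type mouse. Foxp1 was downregulated by edgeR with log2 fold changes of -0.61 ± 0.14 (SE, adjusted p = 0.00503) in R6/1 “good” mice and -1.09 ± 0.14 (adjusted p = 9.9e-05) in the “poor” mice, 0.656 and 0.468 of the wild-type level. Its exons share 300 bases with Gm20696, a gene on the same strand with 3 to 19 counts.

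Meis2, a homeodomain cofactor expressed from striatal progenitors onwards, lies on the minus strand of chromosome 2 from 115863064 to 116065839. Wild-type “good” mice had 469, 496, 362 and 376 CPM and wild-type “poor” mice 434, 383, 436 and 365 CPM. Values were 284, 327, 278 and 354 CPM in R6/1 “good” and, in R6/1 “poor” mice, 194, 259, 233 and 257 CPM. The R6/1 “good” mice lay below all wild-type mice and the R6/1 “poor” mice below all R6/1 “good” mice, the only member for which the R6/1 groups did not overlap. Meis2 was downregulated to 0.749 and 0.568 of the wild-type level, the log2 fold change being -0.42 ± 0.10 for R6/1 “good” mice (SE, edgeR adjusted p = 0.00591) and -0.82 ± 0.10 in “poor” ones (adjusted p = 8.0e-05).

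**Figure D1:**
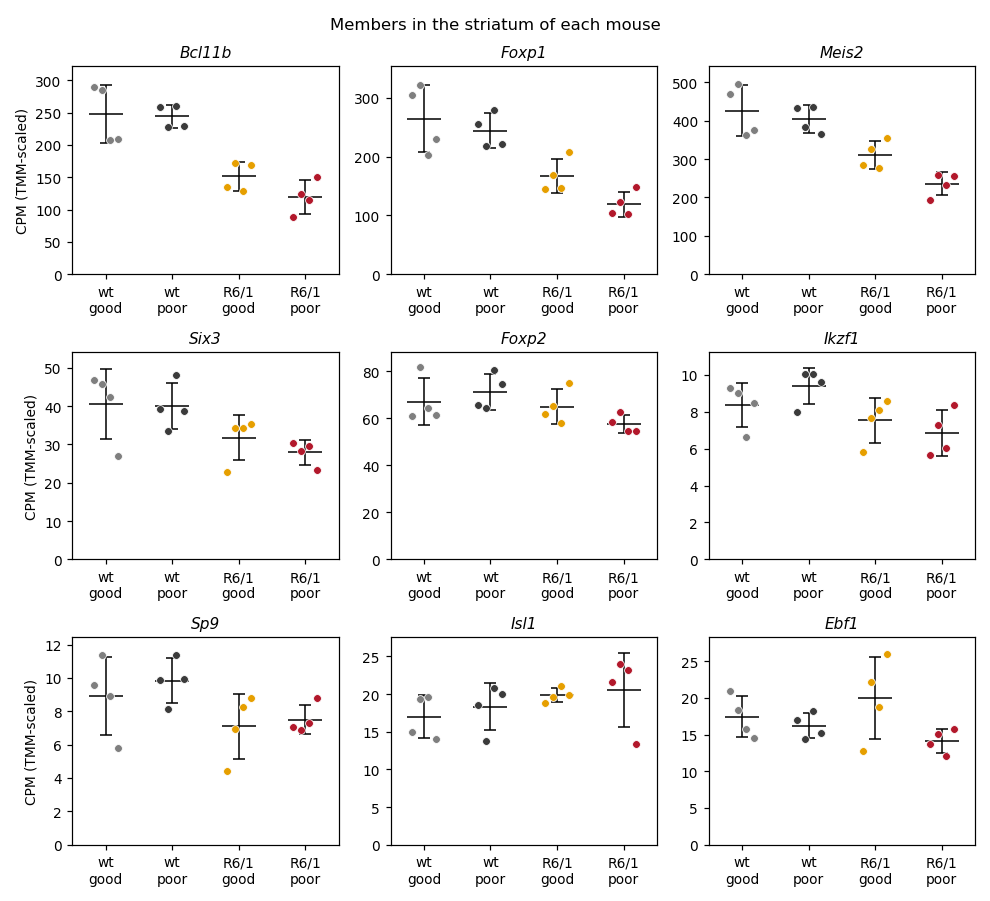
Level of each member in CPM scaled by TMM factors, 1 point per mouse, with the mean as a line and the SD as bars (n = 4 per group, linear axes from 0). Bcl11b, Foxp1 and Meis2 step down from wild-type to R6/1 “good” and R6/1 “poor” mice, and the Isl1 and Ebf1 groups overlap.

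These 3 were the members called in R6/1 “good” mice, 3 lower and 0 higher of 9. Among all genes tested, 12.4% were called lower and 12.1% higher in this comparison, and 5 members were lower at an unadjusted p under 0.05. DESeq2 called 3. Every mouse lay below the wild-type range for 2 members, Bcl11b and Meis2, and for 7.77% of all genes. The median log2 fold change of the 9 members was -0.34, against 0.01 for all genes.

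In R6/1 “poor” mice, 6 of the 9 members were called lower and 0 higher, and 7 were lower at an unadjusted p under 0.05. DESeq2 called the same 6 members. The background was 14.9% of all genes called lower and 13.5% called higher by edgeR. Every R6/1 “poor” mouse lay below the wild-type range for 3 members, Bcl11b, Foxp1 and Meis2, and for 8.85% of all genes. The median log2 fold change of the members was -0.38, against 0.00 for all genes. The comparisons of the R6/1 groups share the 8 wild-type mice, so that their values are not independent of each other.

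The other members called in R6/1 “poor” mice changed less. Six3, a homeodomain factor of indirect pathway neurons on the plus strand of chromosome 17 from 85613608 to 85629302, had 46.9, 45.9, 42.4 and 27 CPM in wild-type “good” mice and 39.2, 33.6, 48.1 and 38.8 CPM in wild-type “poor” mice. Six3 was at 22.9, 34.4, 34.4 and 35.4 CPM in the R6/1 “good” group and, for R6/1 “poor” mice, at 30.3, 28.3, 29.7 and 23.3 CPM. Wild-type “good” mouse 4, at 27 CPM, stood with the R6/1 mice. Wild-type “poor” mouse 2, at 33.6 CPM, also lay below R6/1 “good” mice at 34.4 and 35.4 CPM, so the ranges overlapped. The log2 fold change of Six3 was -0.53 ± 0.14 for R6/1 “poor” (SE, edgeR adjusted p = 0.01) and -0.34 ± 0.15 for “good” mice (adjusted p = 0.116). Without wild-type “good” mouse 4, whose cortical markers summed to 714 CPM, the call in R6/1 “good” mice was made as well (adjusted p = 0.0282).

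Six3 shares 106 exonic bases with Six3os1, a noncoding gene on the other strand with 265 to 707 counts per library, and 168 with the antisense gene Gm28528, with 10 to 25 counts. How the counting treated strand is not known, so some reads may be shared. In R6/1 “poor” mice the log2 fold change was -0.28 ± 0.19 for Six3os1 (SE, edgeR adjusted p = 0.299) and -0.51 ± 0.25 for Gm28528 (adjusted p = 0.136). Sp9 shares 270 exonic bases with Cir1, a corepressor gene on the other strand with 472 to 857 counts, against 90 to 279 for Sp9, and Cir1 differed by 0.14 ± 0.08 (adjusted p = 0.192). Antisense genes overlapping Ebf1 and Ikzf1 (Gm12158, Gm11999 and Gm12000) had at most 3 counts.

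Foxp2, on the plus strand of chromosome 6 from 14901349 to 15441977, had 60.9, 81.9, 64.2 and 61.3 CPM in wild-type “good” mice and 65.5, 64.3, 80.6 and 74.5 CPM in wild-type “poor” mice. It had 61.8, 65.2, 57.8 and 75.2 CPM in R6/1 “good” mice and 58.3, 62.7, 54.5 and 54.4 CPM in R6/1 “poor” mice. The R6/1 “good” mice lay within the wild-type values but for 1 mouse, and 3 of 4 R6/1 “poor” mice lay below them. Foxp2 was called lower for R6/1 “poor” mice (log2 fold change -0.27 ± 0.09, SE, edgeR adjusted p = 0.0368) but not for “good” mice (-0.09 ± 0.09, adjusted p = 0.53). The call in R6/1 “poor” mice rested on single mice, since it was lost on leaving out any of 6 mice (R6/1 “poor” 1, 3 or 4, wild-type “good” 2, wild-type “poor” 3 or 4), with edgeR adjusted p of up to 0.115. Over all mice left out singly, the log2 fold change ran from -0.31 to -0.23. For Foxp2, the 1 R6/1 “poor” mouse within libraries 1 to 8 gave 0.00 and those within libraries 9 to 16 gave -0.39.

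Ikzf1, on the plus strand of chromosome 11 from 11685003 to 11772926, had the lowest level per kilobase, with 119 to 246 counts per library. Wild-type “good” mice had 9.28, 9.02, 6.63 and 8.49 CPM and wild-type “poor” mice 8, 10.04, 10.03 and 9.59 CPM. The values were 5.82, 7.64, 8.11 and 8.58 CPM for R6/1 “good”, and for R6/1 “poor” mice 5.68, 7.28, 6.03 and 8.38 CPM, with the groups overlapping. Ikzf1 was called lower for R6/1 “poor” mice (log2 fold change -0.38 ± 0.13, SE, edgeR adjusted p = 0.0456) but not for “good” mice (-0.24 ± 0.13, adjusted p = 0.193). The call was lost on leaving out any of 10 of the 12 mice in this comparison (all but R6/1 “poor” 4 and wild-type “good” 3), with adjusted p of up to 0.16.

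Because Ikzf1 is also expressed in microglia, their markers are given beside it. The 8 microglial markers summed to 604 to 737 CPM in wild-type mice, 471 to 564 in R6/1 “good” mice and 434 to 536 in R6/1 “poor” mice. Of the 8, 7 were lower in each R6/1 group by edgeR, with median log2 fold changes of -0.33 and -0.44, and none was at 0. The part of microglia in the difference of Ikzf1 was not tested.

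Isl1, Ebf1 and Sp9 passed the threshold in neither R6/1 group. Isl1, a LIM homeodomain factor of direct pathway neurons and of cholinergic interneurons on chromosome 13, had 14.1 to 19.6 CPM in wild-type “good” mice and 13.8 to 20.8 in wild-type “poor” mice. It had 18.8, 19.6, 21.1 and 19.9 CPM in R6/1 “good” mice and 21.6, 24, 23.2 and 13.4 CPM in R6/1 “poor” mice. Of the R6/1 “poor” mice, 3 lay above all wild-type mice and mouse 4, with cortical markers at 789 CPM, lay below them. The log2 fold change of Isl1 was 0.17 ± 0.11 in R6/1 “good” (SE, edgeR adjusted p = 0.298) and 0.22 ± 0.15 in R6/1 “poor” mice (adjusted p = 0.312). Without R6/1 “poor” mouse 4 it was called higher, at 0.38 (edgeR adjusted p = 0.0383). This was the 1 call in 25 alternatives, whose log2 fold changes ran from 0.05 to 0.59. Septal markers summed to 196 and 124 CPM in R6/1 “poor” mice 1 and 3, which are among those with high Isl1. R6/1 “poor” mouse 2, with the highest Isl1 at 24 CPM, had a septal sum of 53.3 CPM. The part of septal tissue in the level of Isl1 was not tested.

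The 6 markers of cholinergic interneurons, a second site of Isl1, were lower in R6/1 mice. They summed to 109.5 to 225 CPM in wild-type mice, 41.7 to 72.5 in R6/1 “good” mice and 40.7 to 103 in R6/1 “poor” mice, so that no R6/1 mouse reached a wild-type mouse. Of these markers, 5 and 4 of 6 were called lower in R6/1 “good” and “poor” mice. What each cell type contributed to the level of Isl1 was not tested.

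Ebf1, an early B-cell factor of direct pathway neurons that is also found in mural cells, lies on chromosome 11. It had 14.6 to 20.9 CPM in wild-type “good” and 14.4 to 18.2 CPM in wild-type “poor” mice, 12.8, 22.2, 18.8 and 26 CPM in R6/1 “good” mice, and 13.7, 15.1, 12.1 and 15.7 CPM in R6/1 “poor” mice. The R6/1 “good” group ranged most widely, with mouse 1 below and mice 2 and 4 above the wild-type values. The log2 fold change of Ebf1 was 0.25 ± 0.15 in R6/1 “good” (SE, edgeR adjusted p = 0.252) and -0.25 ± 0.11 in R6/1 “poor” mice (adjusted p = 0.0988), neither past the threshold. Without R6/1 “good” mouse 1, Ebf1 was called higher (edgeR adjusted p = 0.031, log2 fold change 0.41).

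Mural cell markers, of which 8 were measured, summed to 346 to 405 CPM in wild-type mice, 329 to 363 in R6/1 “good” and 249 to 317 in R6/1 “poor” mice. Of the 8, 0 were called in R6/1 “good” mice by edgeR, 0 by DESeq2 and 0 at an unadjusted p under 0.05, and 6 were called lower in R6/1 “poor” mice. Their part in the level of Ebf1 was not tested.

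Sp9, a zinc finger factor required for indirect pathway neurons, was scarce, with 5.8 to 11.4 CPM in wild-type “good” mice and 8.11 to 11.4 in wild-type “poor” mice. It was at 4.41, 6.96, 8.28 and 8.78 CPM in the R6/1 “good” group and, for R6/1 “poor” mice, at 7.04, 6.85, 7.29 and 8.79 CPM. With all mice, Sp9 differed from wild-type by -0.40 ± 0.19 on the log2 scale (SE, edgeR adjusted p = 0.134) in R6/1 “good” and -0.32 ± 0.15 (adjusted p = 0.13) in “poor” mice, and the groups overlapped. Without wild-type “good” mouse 4, the lowest wild-type mouse, Sp9 was called lower in both (adjusted p = 0.0448 and 0.021).

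**Figure D2:**
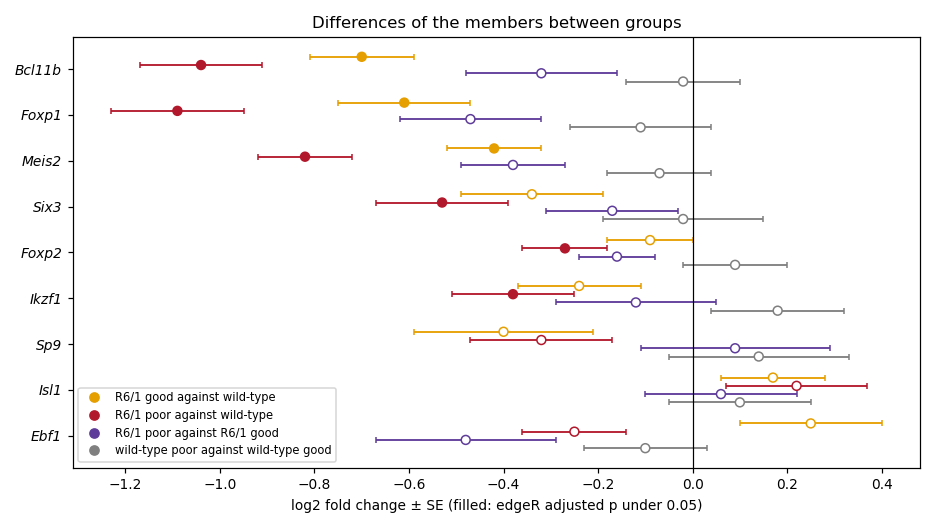
Log2 fold change of each member with its SE in 4 comparisons (edgeR, filled where the adjusted p was under 0.05). Bcl11b, Foxp1 and Meis2 are filled for both R6/1 groups against wild-type mice, Six3, Foxp2 and Ikzf1 for R6/1 “poor” mice, and no member is filled for R6/1 “poor” against “good” or wild-type “poor” against “good” mice.

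R6/1 “poor” and “good” mice were compared to ask whether worse performance went with lower expression. By edgeR 0 of the 9 members passed the threshold, as did 0% of all genes (smallest adjusted p 0.248 for a member). At an unadjusted p under 0.05, 3 members were lower, against 7.17% of all genes. They were Meis2, at a log2 fold change of -0.38 ± 0.11 (SE, edgeR adjusted p = 0.248), Foxp1 at -0.47 ± 0.15 (adjusted p = 0.253) and Ebf1 at -0.48 ± 0.19 (adjusted p = 0.288). DESeq2 called 1 member, Meis2 (adjusted p = 0.0455), and 0.667% of genes lower. R6/1 “poor” mice lay wholly below R6/1 “good” mice for 1 member and for 4.00% of all genes.

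Between wild-type “poor” and “good” mice 0 members were called by edgeR and 0 by DESeq2, with 0% of all genes called by edgeR. At an unadjusted p under 0.05 there were 0 members and 2.44% of genes. The log2 fold changes of the members ran from -0.11 for Foxp1 to 0.18 for Ikzf1. The test of whether the step from “good” to “poor” differed between genotypes, the interaction, called 0 members and 0% of genes by edgeR, with 0 members by DESeq2, and 0 members against 5.77% of genes at an unadjusted p under 0.05. All 9 interaction values were negative, with a median of -0.31 against -0.01 for all genes. So were 22 of 24 signalling genes of medium spiny neurons and 7 of 15 tested relatives of the members. Those of Sp9 (-0.06 ± 0.29, SE) and Isl1 (-0.06 ± 0.23) were smaller than their SE.

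The falls of Bcl11b, Foxp1 and Meis2 were also measured within each set of library numbers. R6/1 “good” mice differed from the wild-type mice within libraries 1 to 8 by a log2 fold change of -0.75 for Bcl11b, -0.68 for Foxp1 and -0.47 for Meis2 (edgeR adjusted p = 0.00832, 0.014 and 0.0153). R6/1 “poor” mice differed within libraries 9 to 16 by -1.04, -1.07 and -0.84 (adjusted p = 0.00438, 0.00601 and 0.00291). Within libraries 1 to 8, with 1 R6/1 “poor” mouse that was assumed to vary like the others, the values were -1.03, -1.12 and -0.72, and Foxp1 was called while Bcl11b and Meis2 were not (edgeR adjusted p = 0.0673 for Bcl11b, 0.0415 for Foxp1 and 0.0661 for Meis2). Libraries 9 to 16 held no R6/1 “good” mouse. R6/1 “poor” against “good” could be compared within libraries 1 to 8 with 1 R6/1 “poor” mouse, which gave -0.27 for Bcl11b, -0.44 for Foxp1 and -0.25 for Meis2, none past the threshold.

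The calls were made again without the mice in which septal or cortical markers stood high. Without R6/1 “poor” mice 1 and 3, Bcl11b, Foxp1, Meis2 and Six3 were still called lower than in wild-type mice (log2 fold change -0.83, -0.91, -0.68 and -0.64, edgeR adjusted p = 0.00368, 0.00742, 0.0054 and 0.0497), while Foxp2 and Ikzf1 were not (-0.24 and -0.18, adjusted p = 0.254 and 0.523). Without the 3 mice of highest cortical sums (wild-type “good” 4, R6/1 “good” 1 and R6/1 “poor” 4), the log2 fold changes in R6/1 “poor” mice were -1.21 for Bcl11b, -1.24 for Foxp1 and -0.88 for Meis2, all called. Those in R6/1 “good” mice were -0.68, -0.57 and -0.39, also called, and Ebf1 was called higher (0.38, edgeR adjusted p = 0.044). This also added a call for Sp9 in R6/1 “poor” mice (-0.49, adjusted p = 0.00995), where Foxp2 was not called (-0.27, adjusted p = 0.0628).

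**Figure D3:**
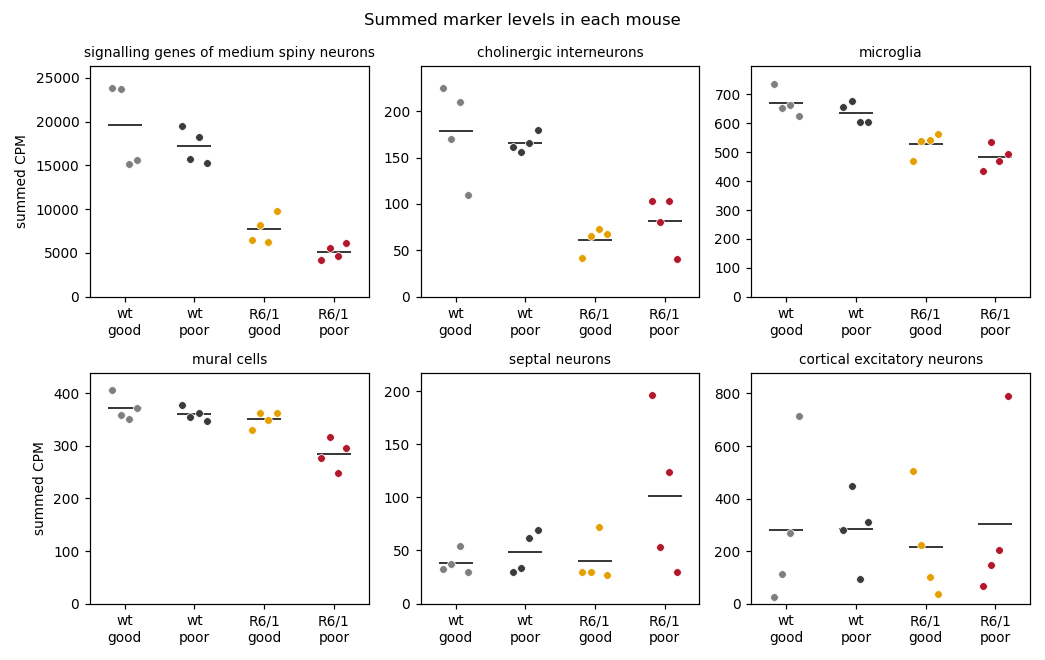
Summed CPM of 6 marker lists, 1 point per mouse with the group mean as a line (linear axes from 0). The 8 wild-type mice lie above all R6/1 mice for the signalling genes of medium spiny neurons, cholinergic interneurons and microglia, and 2 R6/1 “poor” mice stand high for septal markers.

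Members were also compared with each other within each mouse, as a ratio that no scaling of the libraries can alter. Foxp1 over Bcl11b had a mean of 1.03 ± 0.0669 in wild-type (SD, n = 8) and 1.05 ± 0.112 in R6/1 mice (n = 8), while each gene ranged over 3-fold across the 16 mice. The log2 ratio differed from wild-type by 0.10 in R6/1 “good” and -0.04 in R6/1 “poor” mice. These ratios were chosen with values already seen, so they are given as a description, and no p-value of a ratio is used.

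The ratio of Meis2 to Bcl11b lay from 1.59 to 1.8 in wild-type mice, from 1.9 to 2.16 in R6/1 “good” and from 1.7 to 2.18 in R6/1 “poor” mice, log2 differences of 0.29 and 0.24. Foxp2 over Foxp1 lay between 0.2 and 0.336 in wild-type mice, between 0.364 and 0.427 in R6/1 “good” mice and between 0.367 and 0.56 in R6/1 “poor” mice, with no overlap with wild-type mice (log2 differences 0.52 and 0.83).

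The ratio of Isl1, of direct pathway neurons and cholinergic interneurons, to Six3, of indirect pathway neurons, was 0.32 to 0.523 in wild-type mice. It was 0.563 to 0.823 in R6/1 “good” and 0.578 to 0.848 in R6/1 “poor” mice, above every wild-type mouse (log2 differences 0.53 and 0.72). The ratio of Ebf1 to Sp9, the other direct and indirect pathway members, was not computed. The ratio of Meis2 to Foxp1 differed by 0.19 and 0.28 on the log2 scale, with overlapping ranges.

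**Figure D4:**
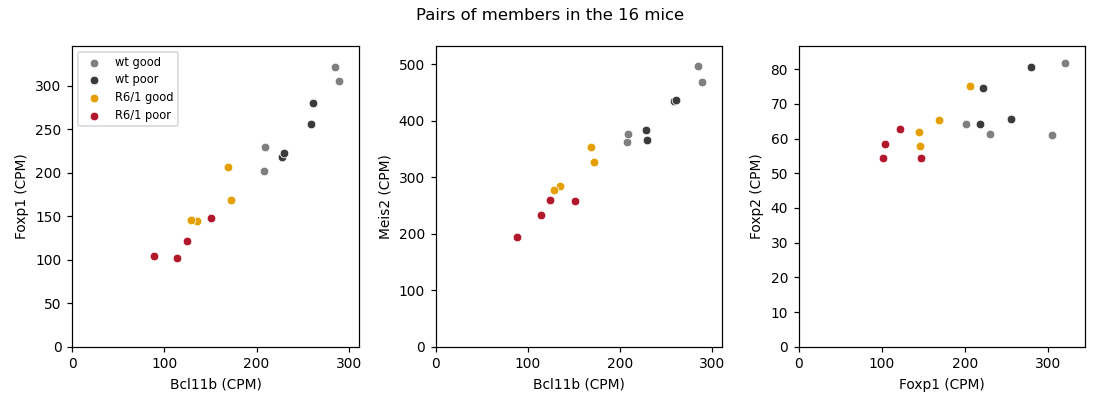
Level in CPM of 3 pairs of members, 1 point per mouse coloured by group (linear axes from 0). Foxp1 and Meis2 are low where Bcl11b is low, with R6/1 mice below wild-type mice, while Foxp2 stays between 54.4 and 81.9 CPM as Foxp1 goes from 102 to 321 CPM.

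Genes whose pattern over the 16 mice was most like that of a member were sought for Bcl11b, Foxp1 and Meis2, by the root mean square difference of log2 CPM centred on each gene. For Bcl11b they were Klf16 (0.095), a Krüppel-like factor, Atp2b1 (0.0965), a plasma membrane calcium pump, and Lzts3 (0.103). Foxp1 was at rank 14 (0.12) and Meis2 at rank 64 (0.158) for Bcl11b. For Foxp1 they were Lzts3 (0.0874), Zswim6 (0.0977) and D430036J16Rik (0.0998), with Bcl11b at rank 11 (0.12) and Meis2 at rank 45 (0.158). For Meis2 they were Gnal (0.0841), the olfactory type G protein subunit of striatal dopamine signalling, Elmod1 (0.0844) and Otulinl (0.0861). Foxp1 and Bcl11b were only at ranks 131 and 132 for Meis2 (0.158 for both). By comparison, the members themselves deviated from their own mean by 0.502 for Bcl11b, 0.508 for Foxp1 and 0.375 for Meis2. The like genes fell in R6/1 “poor” mice by 0.76 to 1.16 on the log2 scale, which follows from their choice by likeness to members that fell.

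Relatives of the members in the same families are counted against the shares of all genes given above (12.4% lower and 12.1% higher in R6/1 “good”, 14.9% and 13.5% in R6/1 “poor” mice). Of 19 listed, 15 passed the filter, with 2 lower and 1 higher in R6/1 “good” mice and 2 lower and 3 higher in R6/1 “poor” mice, and medians of 0.01 and 0.04. In R6/1 “poor” mice Ikzf3, a lymphoid relative of Ikzf1 at 1.96 CPM in wild-type mice, fell by 1.56 ± 0.26 on the log2 scale (SE, edgeR adjusted p = 5.4e-04). Ikzf2 rose by 0.84 ± 0.16 (adjusted p = 0.00142), Foxp4 by 0.52 ± 0.11 (adjusted p = 0.00301) and Six4, at 0.414 CPM in wild-type mice, by 1.68 ± 0.36 (adjusted p = 0.00329).

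Other transcription factors of striatal neurons were measured as well. Of 22, 6 were lower and 0 higher in R6/1 “good” mice, and 8 were lower and 1 higher in R6/1 “poor” mice, with medians of -0.11 and -0.22. Foxo1, a forkhead factor downstream of insulin signalling, changed by -0.70 ± 0.11 and -1.07 ± 0.11 on the log2 scale (SE, edgeR adjusted p = 3.4e-04 and 1.6e-05), and Klf16 by -0.79 ± 0.09 and -1.15 ± 0.12 (adjusted p = 4.0e-05 and 2.0e-05). The distal-less factor Dlx6 changed by -0.40 ± 0.13 and -0.69 ± 0.10 (adjusted p = 0.0337 and 2.3e-04). Rarb, a retinoic acid receptor, was at -0.41 ± 0.15 in R6/1 “good” mice (adjusted p = 0.0561) and was called at -1.09 ± 0.17 in R6/1 “poor” mice (adjusted p = 4.3e-04).

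Of 9 transcription factors of interneurons, 2 were lower and 0 higher in R6/1 “good” mice (5 lower by DESeq2), with a median of -0.64. In R6/1 “poor” mice 0 were called by edgeR, 0 by DESeq2 and 0 at an unadjusted p under 0.05, with a median of -0.14. In R6/1 “poor” mice Gbx2 was at 0.92 ± 0.57, Lhx8 at -0.36 ± 0.33 and Lhx6 at -0.14 ± 0.16 on the log2 scale (SE, edgeR adjusted p = 0.247, 0.455 and 0.538). Lhx6, a LIM homeodomain factor of interneurons from the medial ganglionic eminence, was called in R6/1 “good” mice (-0.67 ± 0.12, adjusted p = 0.00112).

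The signalling genes that define mature medium spiny neurons are given for scale. Of 24, 22 were lower in the R6/1 “good” and 24 in the R6/1 “poor” group, with median log2 fold changes of -1.24 and -1.79, and their sum in R6/1 mice lay between 4183 and 9799 CPM. In R6/1 “poor” mice the sodium channel subunit Scn4b changed by -3.61 ± 0.22 and the enkephalin precursor Penk by -2.60 ± 0.15 (SE, edgeR adjusted p = 1.2e-06 and 3.8e-07). The G protein regulator Rgs9 changed by -2.20 ± 0.17 and the adenylyl cyclase Adcy5 by -1.78 ± 0.14 (adjusted p = 4.0e-06 for both). Bcl11b, Foxp1 and Meis2, at -1.04, -1.09 and -0.82, were at the weakest end of this list, which ran from -3.61 to -0.74. Only Tac1, at -0.74, and Gnal, at -0.76, fell less than these members.

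Markers of both pathways were lower. Of 4 indirect pathway markers tested, 4 were lower in each R6/1 group, with medians of -1.57 and -2.37, and in R6/1 “poor” mice Drd2 was at -2.14 ± 0.21, Adora2a at -2.60 ± 0.26 and Gpr6 at -1.89 ± 0.20 on the log2 scale (SE, edgeR adjusted p = 2.5e-05, 2.9e-05 and 3.0e-05). Of 6 direct pathway markers, 4 were lower and 1, Eya1, higher in R6/1 “good” mice, and 5 were lower in R6/1 “poor” mice, with medians of -0.71 and -1.24. Drd1 was at -1.76 ± 0.15, Chrm4 at -1.62 ± 0.15, Pdyn at -1.35 ± 0.14 and Slc35d3 at -1.13 ± 0.13 in R6/1 “poor” mice (adjusted p = 8.8e-06, 1.2e-05, 2.9e-05 and 4.3e-05). Set beside these, the direct pathway members Isl1 and Ebf1 were at 0.22 and -0.25 in R6/1 “poor” mice, neither past the threshold. Of the indirect pathway members, Six3 was called at -0.53 and Sp9, at -0.32, was not.

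Markers of the other cells that the dissected tissue could hold moved as follows. Of 5 endothelial markers, 4 were lower in each R6/1 group, of 5 astrocyte markers 4 and 2, and of 4 oligodendrocyte markers 2 and 3, for R6/1 “good” and “poor” in that order. Of 5 septal markers, 0 were called in R6/1 “good” mice (by edgeR, by DESeq2 or at an unadjusted p under 0.05) and 3 were higher in R6/1 “poor” mice, and of 6 hypothalamic markers 1 was lower in R6/1 “good” and 1 higher in “poor” mice. By edgeR, 0 of 8 cortical, 4 thalamic, 5 ependymal and 6 neuroblast markers were called in either group. At an unadjusted p under 0.05 these were 0 cortical markers, 1 thalamic marker in R6/1 “poor” mice, 1 ependymal marker in R6/1 “good” mice, and 2 neuroblast markers, 1 of them in both groups, and DESeq2 called 1 thalamic and 1 neuroblast marker in R6/1 “poor” mice. Their part in the members' differences was not tested.

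**Figure D5:**
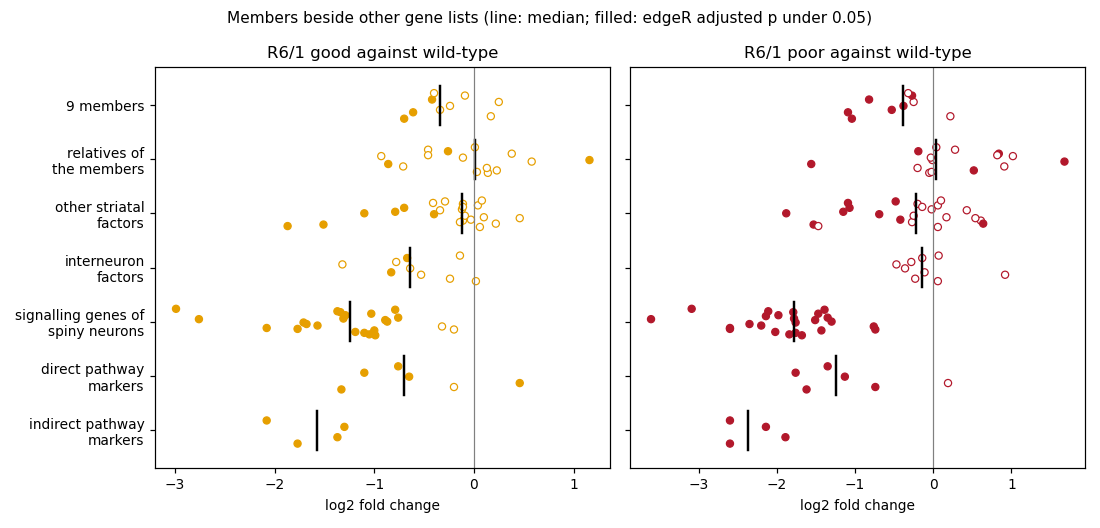
Log2 fold change of each tested gene of 7 lists in the 2 R6/1 groups against wild-type mice, 1 point per gene (filled where the edgeR adjusted p was under 0.05), with the median of the list as a line. The members have medians of -0.34 and -0.38, between the relatives of the members and the signalling genes of medium spiny neurons.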

How the data were processed

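Striatal mRNA of 16 mice, 4 in each of 4 groups, was analysed, 1 library per mouse. Per the labels and the methods of the study, the authors prepared libraries with a stranded mRNA kit and aligned read pairs with TopHat 1.0.1 to GRCm38, with CASAVA and Bowtie also named. The deposited values are raw counts per gene for 55450 genes, not normalised. The sources used here name neither the read counter nor its strand setting. The 55450 identifiers were matched to GENCODE M21 for positions and exon lengths.

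A gene was tested where 4 or more libraries held 10 or more counts, which 19363 genes did. Each comparison was fitted on the groups compared with edgeR 4.0.16 (TMM, robust dispersions, quasi-likelihood test), with the 8 wild-type mice pooled, Benjamini-Hochberg adjustment over all genes tested and a threshold of 0.05. DESeq2 1.42.0 was an alternative, with other filters, scaling, single mice left out, a replicate block and the library numbers as others. CPM use TMM factors, and log2 CPM a prior count of 2. Exact permutation tests of the ratios of members were run, but none is used here, since the ratios were chosen with values already seen. R 4.3.3, Python 3.11.15, numpy 2.4.6, pandas 2.3.3 and matplotlib 3.10.9 were used.

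The members, gene lists and tests were chosen with earlier results of these data known. Named beside the members were up to 4 genes of each list with the smallest p in R6/1 “poor” against wild-type mice, the 3 genes most like each member called in both R6/1 groups, and genes overlapping a member on the other strand. One gene that this rule names is not reported here. Genes outside this rule, such as Eya1, were named after their values were seen. Libraries of 1 group differed by at least 5.31 chi-square units per gene, more than sampling noise. The mice tested came from several litters and cohorts, and the labels give neither. Gpr52, the human transgene and the promoter window of Foxp2 were not analysed here.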

Additional observations from a re-analysis of the deposited data

Results flagged for a closer look

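Single mice stood apart in 2 of the 36 combinations of a member and a group, by the gap of the outermost mouse to its neighbour as a share of the range of the group, and chance flags about 1 in 20. Foxp2 reached 81.9 CPM in wild-type “good” mouse 2, against 60.9 to 64.2 CPM in the other 3 mice. Six3 was at 22.9 CPM in R6/1 “good” mouse 1, against 34.4 to 35.4 CPM in the other 3.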

How the results depend on the processing

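Members called kept within 1.5 times the reported count in 104 of 108 alternatives. The exceptions were R6/1 “good” mice without wild-type “good” replicate 4 (5 members, adding Six3 and Sp9), R6/1 “poor” mice within libraries 1 to 8 (1, Foxp1, with 1 R6/1 “poor” mouse), and R6/1 “poor” against “good” by DESeq2 (1, Meis2) and with the replicate block (1, Foxp1, adjusted p = 0.03, 96 genes in all). Leaving out each mouse gave 3 to 5 members in R6/1 “good”, 4 to 6 in R6/1 “poor”, and 0 to 0 in the other comparisons. The reported count in those other comparisons was 0, and a fall from 6 to 4 members was within 1.5 times, so this measure is lenient. By single member, the call in R6/1 “poor” mice was lost in 10 of 25 alternatives for Foxp2 and in 14 of 25 for Ikzf1.

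Of 603 fold changes of members, 10 changed sign, all of them uncalled. For Foxp2 in R6/1 “good” mice these were 0.05 with the library set as covariate and 0.04 within libraries 1 to 8. For R6/1 “poor” against “good”, Sp9 was -0.04 in both of these, -0.17 without the 3 mice of highest cortical sums and from -0.08 to 0.21 on leaving out single mice (lowest without R6/1 “good” replicate 1). Isl1 was -0.08 without the 2 R6/1 “poor” mice of highest septal sums, and from -0.02 to 0.22 on leaving out single mice (-0.02 and 0.00 without R6/1 “poor” replicates 2 and 3), and Ikzf1 was 0.07 without the 2 septal mice. The septal and cortical alternatives were chosen after seeing the data. The causes were not tested. Over all genes, R6/1 “poor” against “good” gave 0 calls by edgeR, 356 by DESeq2, 28 with no filter, 124 without the 3 cortical mice, and 61 and 99 without R6/1 “poor” replicates 2 and 4. R6/1 “poor” against wild-type gave 5511 calls, 1800 without the 2 septal mice, 3401 within libraries 9 to 16 and 445 within libraries 1 to 8.

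The replicate numbers did not pair the mice: of 24 same-numbered pairs, 5 correlated above 0.1 (r from -0.346 to 0.233), and the own number correlated best in 10 of 48 combinations. With the replicate block, Foxp2 in R6/1 “poor” mice was no longer called (adjusted p = 0.0506). The members with the fewest counts were Ikzf1 and Sp9, at 90 to 279 per library.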
